A study of Homo sapiens with 9 samples.

Results

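The genes of the respiratory chain that are encoded in the nucleus were examined in cells labelled MDA-MB-453, an established human breast cancer cell line, by RNA sequencing. The members were the genes of the deposited table whose symbols follow the naming of the subunits of complex I (NDUFA, NDUFB, NDUFC, NDUFS and NDUFV), complex III (UQCR), complex IV (COX4 to COX8) and complex V (ATP5). The rule used names only and no measured value, and it found 77 of 19930 genes: 37 of complex I, 9 of complex III, 13 of complex IV and 18 of complex V. All 9 libraries came from cells transfected with Lipofectamine 2000, and the labels give a harvest at 48 h. X453_NC was the control (scramble) group, and X453_1 and X453_2 were both labelled Linc00673 knockdown, with 3 libraries per group. The numbers of the knockdown groups match the numbers of the siRNAs in the study, but the labels do not name the siRNA of each library. The labels do not say whether the libraries of a group came from separate cultures, so the P values measure the spread between these libraries, which may be technical. The level of LINC00673 itself was not analysed here, so the knockdown was not checked.

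The respiratory chain sits in the inner mitochondrial membrane. Complex I takes electrons from NADH, complex III passes them from ubiquinol to cytochrome c, and complex IV hands them to oxygen; all 3 pump protons, and complex V, the ATP synthase, lets the protons flow back to make ATP. Most subunits are made from nuclear genes and imported, while a small group that includes the central membrane subunits is made from mitochondrial DNA. The 13 protein genes of mitochondrial DNA were not analysed here.

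Values are FPKM (fragments scaled by transcript length and by the mapped fragments of the library), which are levels per length. The depth estimated from the steps between low FPKM was 23700000 to 27600000 fragments per library, and log2(FPKM + 1) correlated across genes, which are not independent replicates, with r of 0.994 to 0.996 within a group and 0.955 to 0.990 between groups. The label of the cell line was checked against markers. The epithelial genes KRT8, KRT18, KRT19 and EPCAM were high (EPCAM 287 to 329.6 FPKM), but of the genes that mark luminal cells of this type FOXA1 had at most 0.04 FPKM, GATA3 0.41 to 0.88 and SPDEF 0.57 to 1.24 in the 9 libraries. HNF4A, a transcription factor of liver and gut epithelium, had 42.3 to 54.4 FPKM and was picked after its values were seen. The cells are called by their label only. Of 11 markers of blood, stromal, endothelial and basal cells, 9 were below 1 FPKM in every library. The other two were CD68 and COL1A1, and the summed level of the 11 genes was 38.1 to 39.4 FPKM in X453_NC, 53.6 to 57.0 in X453_1 and 62.6 to 68.1 in X453_2. Their part in the results below was not tested. FPKM are shares of a library and give relative levels only. A lower share in each cell and fewer cells that express a gene cannot be told apart.

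Subunit genes were among the abundant transcripts of these cells, and complexes IV and V stood above complexes I and III. In X453_NC the median of the group means was 247 FPKM over the 11 complex IV genes that reached 1 FPKM as a mean of the 9 libraries, 119.7 over 17 genes of complex V, 64.9 over 36 genes of complex I and 64.1 over 8 genes of complex III. The highest level of all members was that of ATP5B, the catalytic beta subunit of the ATP synthase, with 674, 656 and 655 FPKM in the X453_NC libraries. COX8A, a small subunit of complex IV, followed with 581, 545 and 533 FPKM. Among the 36 tested genes of complex I the means in X453_NC went from 7.80 FPKM for NDUFA5 to 163 for NDUFB9, a ratio of 20.9, against 15.1 in complex III, 133 in complex V and 317 in complex IV. Of all 37 complex I genes 6 were above 100 FPKM, compared with 9 of 13 in complex IV.

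**Figure D1:**
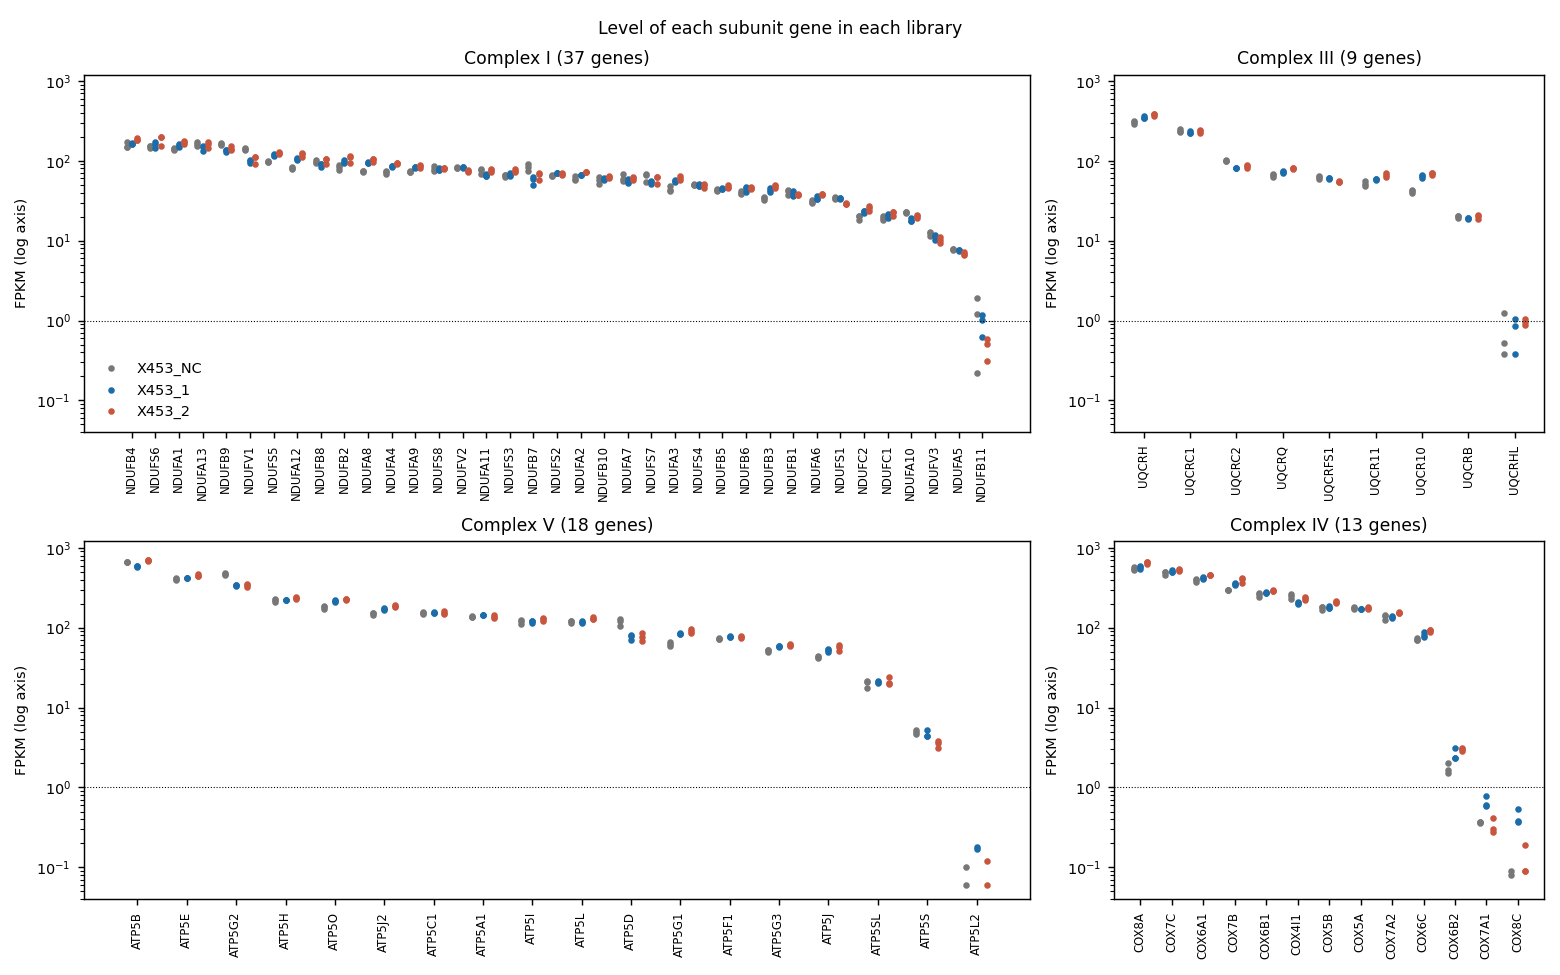
FPKM (log axis) of each of the 77 genes in each of the 9 libraries, with genes of a complex ordered by mean level and 3 points per group; the dotted line marks 1 FPKM and values of 0 are not drawn. Complex IV and V genes sit mostly above 100 FPKM, and NDUFB11, UQCRHL, COX7A1, COX8C and ATP5L2 sit around or below the line.

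The 5 members with a mean below 1 FPKM were not tested. UQCRHL, a retrocopy of UQCRH (hinge subunit of complex III), had 0.38 to 1.23 FPKM beside 287 to 383 for UQCRH, so it made up at most 0.389% of the sum of both genes, and the split of fragments between such near-identical copies is uncertain. COX7A1 and COX8C, the muscle and testis forms of their subunits, had 0.28 to 0.79 and 0 to 0.54 FPKM, while COX7A2 and COX8A, the forms of most tissues, had 126 to 156 and 533 to 669. ATP5L2, the copy of ATP5L, was listed at 0 to 0.18 FPKM. NDUFB11, a subunit of the membrane arm of complex I, had 0.22 to 1.93 FPKM, far below the next lowest complex I gene. COX6B2, the testis form of COX6B, was the lowest member that passed, with 1.53, 1.66 and 2.04 FPKM in X453_NC against 268.8, 262 and 245 for COX6B1.

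To ask whether the complexes changed with the knockdown, each group was compared with X453_NC by limma on log2(FPKM + 1) over 12884 genes, with Benjamini-Hochberg adjustment over all of them. Rose and fell stand below for an adjusted P of at most 0.05, and a gene past the limit also changed at least 1.3-fold. Both comparisons use the same X453_NC libraries. With X453_1, 27 of the 72 tested members (37.5%) rose, where 32.1% of all genes did, and 10 fell, where 32.3% of all genes did. Past the limit were 3 higher and 4 lower members (background 11.0% higher and 15.5% lower). The share that rose was thus close to the background, while the share that fell was below it. The median log2 fold change was 0.06 over the members and 0.0032 over all genes. After a correction for transcript length, 42 members rose and 9 fell with X453_1, and after that for GC content 25 rose and 13 fell. With the length correction the median was 0.14 over the members and 0.03 over all genes. The shares of all genes that rose or fell after these corrections are not given here.

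With X453_2, 41 members (56.9%) rose, against 26.0% of all genes, and 13 fell, against 44.8%. Past the limit were 9 higher and 4 lower members (background 10.9% higher and 23.0% lower). Here the median log2 fold change was 0.14 over the members and -0.095 over all genes. The members thus leaned higher while the whole table leaned lower, and most of the changes were below 1.3-fold. After scaling each library by the median ratio of expressed genes, which brought the median of all genes to -0.0038, 21 members were past the limit as higher and 1 as lower, with a median of 0.25. The same scaling left 3 higher and 4 lower with X453_1. After a correction for transcript length, 31 members rose and 18 fell with X453_2. The median was then 0.087 over the members and -0.0905 over all genes. Without the correction, all tested genes of up to 500, 501 to 750 and 751 to 1000 bases had medians of 0.07, 0.0004 and 0.06 with X453_2. The members in these length classes had 0.21, 0.19 and 0.19.

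**Figure D2:**
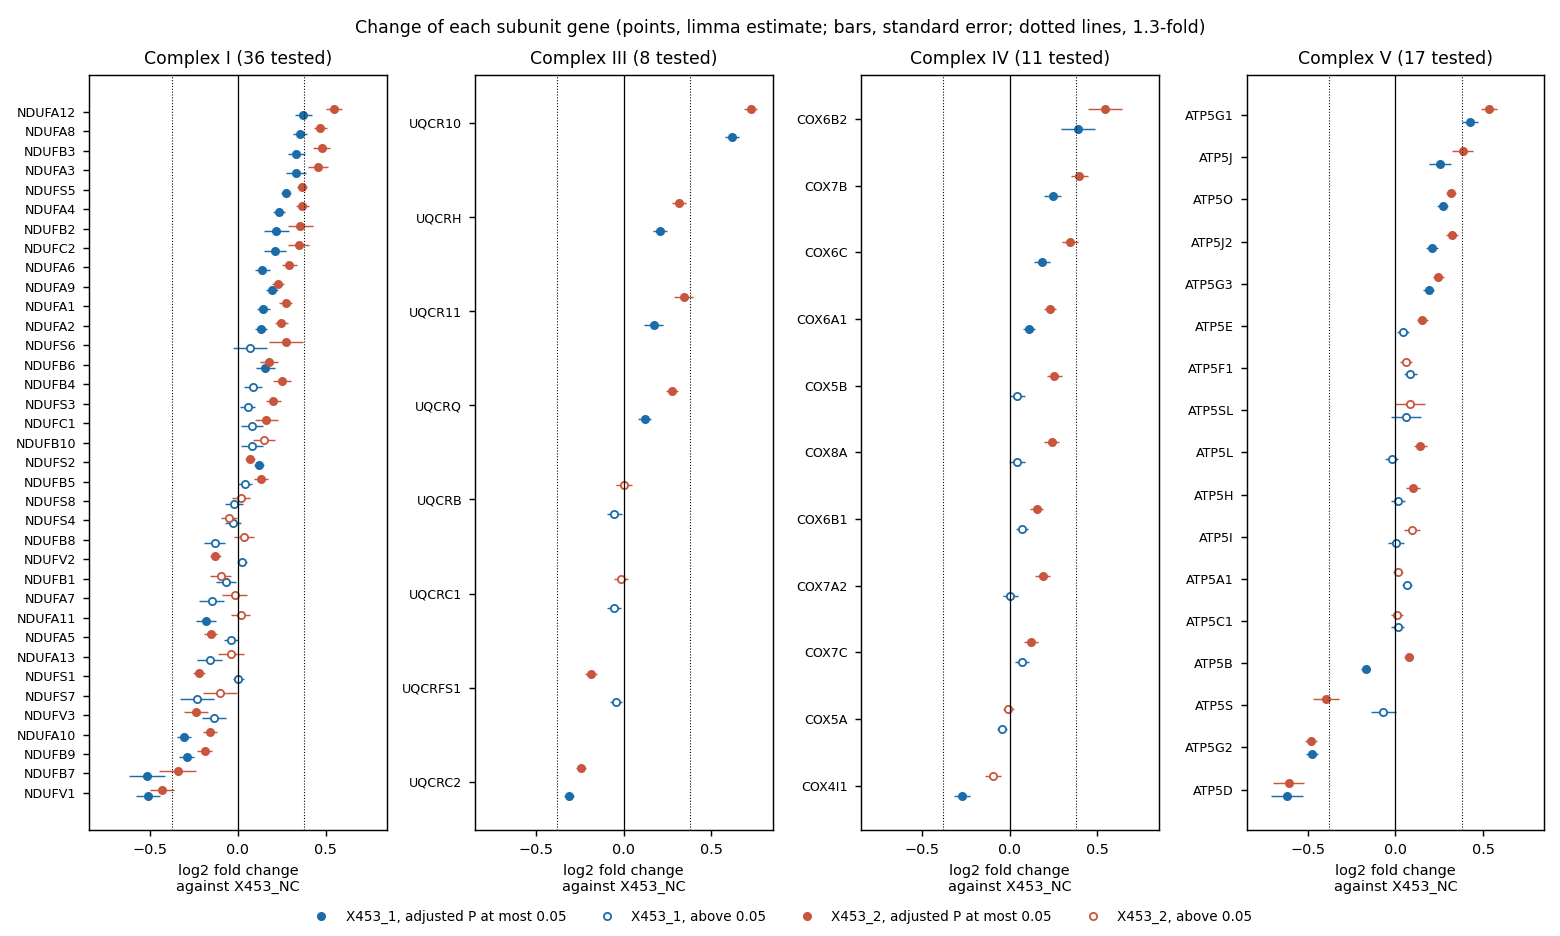
log2 fold change against X453_NC (x axis, log2(FPKM + 1) scale) of the 72 tested genes, by complex and ordered by the mean of both comparisons; points are limma estimates, bars standard errors, filled points an adjusted P of at most 0.05 and dotted lines 1.3-fold. UQCR10, ATP5G1 and NDUFA12 lie at the top of their complexes and ATP5D, ATP5G2 and NDUFV1 at or near the bottom, and the points of X453_2 mostly lie right of those of X453_1.

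With X453_1, the median log2 fold change was 0.06 for complex I (14 of 36 rose and 5 fell), 0.04 for complex III (4 of 8 rose and 1 fell), 0.07 for complex IV (4 of 11 rose and 1 fell) and 0.04 for complex V (5 of 17 rose and 3 fell). With X453_2, complex IV had the highest median, 0.23, and 9 of its 11 genes rose while 0 fell by limma (also 0 at an unadjusted P of at most 0.05). The medians were 0.14 for complex I (19 rose and 8 fell), 0.14 for complex III (4 rose and 2 fell) and 0.09 for complex V (9 rose and 3 fell). The shares that rose were 29.4% (complex V) to 50.0% (III) with X453_1, against 32.1% of all genes. They were 50.0% (III) to 81.8% (IV) with X453_2, against 26.0% of all genes. A fall was seen in 32.3% of all genes with X453_1 and 44.8% with X453_2. The order of the complexes with X453_2 depended on the processing: after the correction for transcript length complex IV had the lowest median (0.082, against 0.085 for complex I, 0.12 for III and 0.092 for V), and after that for GC content it was below complex I (0.1705 against 0.1735). No test between the complexes was run, since the genes of a complex are not replicates. NDUFA4 carries a complex I name but is known as a subunit of complex IV, and counting it there left the medians within the spread between libraries.

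Summed FPKM weigh the abundant genes more. The sum of complex IV was 2729 to 2898 FPKM in X453_NC, 2872 to 2918 in X453_1 and 3175 to 3203 in X453_2, so that each X453_2 library lay above each of the other libraries, with a mean 14.04% above that of X453_NC. The sum of complex I was 2502 to 2686 FPKM in X453_NC and 2724 to 2876 in X453_2 (8.86% higher), with the X453_1 sums overlapping the control (2547 to 2657). Complex III had 859.6 to 915 FPKM in X453_NC, 920.4 to 941 in X453_1 and 973 to 999 in X453_2, which do not overlap. The sum of complex V was 2917 to 3074 FPKM in X453_NC and 2849 to 2892 in X453_1, 4.14% lower in the mean, and 3011 to 3118 in X453_2, which overlapped the control. As a share of the FPKM of the library that order turned: complex V took 0.561% to 0.578% in X453_NC and 0.578% to 0.584% in X453_1, with means of 0.571% and 0.581%. On that scale complex I in X453_1 did not overlap the control either, with 0.520% to 0.538% against 0.483% to 0.505%. Over all 77 genes the sum took 1.74% to 1.80% of the FPKM of an X453_NC library, 1.88% to 1.89% in X453_1 and 1.94% to 1.97% in X453_2. These sums were not tested.

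**Figure D3:**
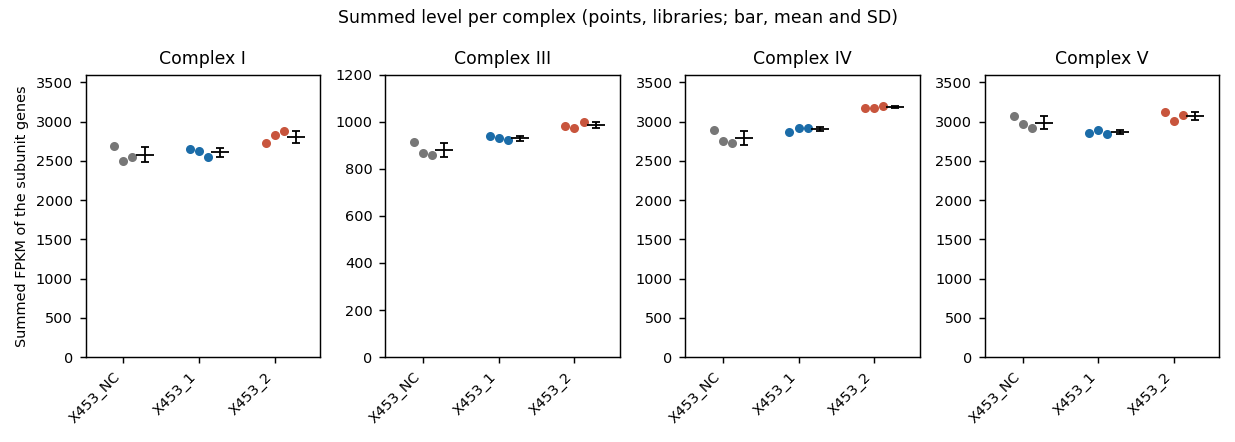
Summed FPKM of the genes of each complex (y axis from 0, with its own range for complex III) in the 9 libraries, with the mean and SD of each group of 3. Complex IV is highest in X453_2, at 3175 to 3203 FPKM, and complex V is lowest in X453_1, at 2849 to 2892, an order against X453_NC that turns when the sum is taken as a share of the library.

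In complex I, accessory subunits rose more often than the core subunits that carry the redox centers. Of 29 accessory genes tested, 13 rose and 4 fell with X453_1 and 17 rose and 5 fell with X453_2, with medians of 0.08 and 0.18. Of the 7 core genes, 1 rose and 1 fell with X453_1 and 2 rose and 3 fell with X453_2, with medians of 0.0023 and -0.10. The shares that rose were 44.8% and 58.6% of accessory genes and 14.3% and 28.6% of core genes, against 32.1% and 26.0% of all genes. Of all genes, 32.3% fell with X453_1 and 44.8% with X453_2. The difference between these lists was not tested, and the lists were not compared after the GC or length correction. NDUFS8, a core gene, rose after the GC correction (below). The 3 genes with the largest mean rise were NDUFA12, NDUFA8 and NDUFB3, all accessory subunits.

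NDUFA12 (NCBI Gene ID 55967), an accessory subunit of the peripheral arm, lies on chromosome 12 from 95365104 to 95397489 of GRCh37.p13. It had 80.7, 84.1 and 78.2 FPKM in X453_NC, 109.7, 105 and 101 in X453_1 and 121, 111 and 124 in X453_2. Each knockdown library was above each control library. The log2 fold changes were 0.37 (SE 0.048, limma adjusted P = 7.9e-05) and 0.55 (SE 0.048, limma adjusted P = 4.2e-06), the first just below the limit of 0.38 that stands for 1.3-fold. NDUFA8, an accessory subunit on the intermembrane side, went from 72.5 to 74.4 FPKM in X453_NC to 93.0 to 96.3 in X453_1 and 95.9 to 105 in X453_2 (log2 fold changes 0.36 and 0.47, limma adjusted P = 2.5e-05 and 2.7e-06). NDUFB3, in the membrane arm, went from 32.3 to 35.1 FPKM to 40.6 to 45.7 and 46.0 to 49.1 (0.33 and 0.48, limma adjusted P = 0.00019 and 1.2e-05). For both genes the knockdown libraries lay above all control libraries.

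NDUFV1 (chromosome 11, 67374323 to 67380012), the core subunit that binds NADH and FMN, fell. Its values were 146, 135 and 141 FPKM in X453_NC, 102, 100.4 and 92.8 in X453_1 and 92.3, 110.1 and 111 in X453_2. All 6 knockdown libraries were below all 3 control libraries, with changes of -0.52 and -0.43 on the log2 scale (SE 0.069 each, limma adjusted P = 0.00011 and 0.00028). NDUFB7, an accessory subunit, fell from 74.4 to 90.2 FPKM to 50.0 to 63.3 in X453_1 and 56.9 to 70.1 in X453_2 (-0.52 and -0.34, limma adjusted P = 0.0015 and 0.013). NDUFB9 fell from 159 to 168 FPKM to 128 to 136 and 138 to 152 (-0.29 and -0.19, limma adjusted P = 0.00021 and 0.0027), and its fall with X453_2 was lost with median ratio scaling (-0.085, limma adjusted P = 0.13). The transcripts of NDUFV1 and NDUFB7 have a GC content of 60.4% and 65.0%, where the median over all tested genes was 50.4%. After a correction for GC content, NDUFV1 was at -0.30 and -0.28 and NDUFB7 at -0.09 and -0.0092 (limma adjusted P = 0.48 and 0.94), so that NDUFB7 no longer fell and neither gene was past the limit. NDUFB7 also missed the threshold with X453_2 when X453_NC replicate 1 was left out (-0.28, limma adjusted P = 0.052). Here and below, P values after the GC or length correction keep the standard errors of the uncorrected fit. The error of the correction itself is left out.

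The complex I gene with the highest mean level, NDUFB4, had 147 to 169 FPKM in X453_NC and 161 to 169 in X453_1, which overlap, and rose to 179.9 to 192 in X453_2 (log2 fold change 0.25, SE 0.051, limma adjusted P = 0.0014). With X453_1 its change was 0.08 (limma adjusted P = 0.17), and without X453_NC replicate 1 it was 0.15 (limma adjusted P = 0.0077). NDUFS8, a core subunit with iron-sulfur clusters, lay nearest to 0, with 73.9 to 86.6 FPKM in X453_NC, 77.0 to 81.1 in X453_1 and 78.3 to 82.3 in X453_2. After the GC correction it stood at 0.30 and 0.26 (limma adjusted P = 0.0007 and 0.0012). NDUFA4 rose in both comparisons, from 68.1 to 75.2 FPKM to 83.8 to 85.3 and 91.3 to 93.9 (log2 fold changes 0.23 and 0.37, limma adjusted P = 0.00029 and 1e-05).

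In complex III the largest rise of all 72 members was found. UQCR10 (NCBI Gene ID 29796), a small subunit of the complex, lies on chromosome 22 from 30163358 to 30166402. It had 41.7, 39.9 and 42.6 FPKM in X453_NC, 61.3, 64.2 and 66.6 in X453_1, and 70.6, 67.1 and 69.3 in X453_2. The groups did not overlap, and the changes were 1.53-fold and 1.65-fold on the log2(FPKM + 1) scale (log2 0.62 and 0.72, SE 0.039 each, limma adjusted P = 9.3e-07 and 1.8e-07). UQCRH, the most abundant gene of the complex, rose from 287 to 315 FPKM to 338 to 362 and 364 to 383 (0.21 and 0.32, limma adjusted P = 0.0013 and 5.9e-05). UQCR11 rose from 48.3 to 56.0 FPKM to 56.8 to 59.4 and 62.2 to 69.3 (0.17 and 0.34, limma adjusted P = 0.02 and 0.00031), and its change with X453_1 lost the threshold in 4 of the 6 fits that left out an X453_1 or X453_NC library (0.12 to 0.16, limma adjusted P = 0.055 to 0.072, without X453_1 replicate 1 or 3 or X453_NC replicate 2 or 3).

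UQCRC2, a core protein of complex III on the matrix side, fell with both. It had 101, 103 and 100.3 FPKM in X453_NC, 80.6, 80.9 and 82.2 in X453_1 and 87.4, 82.2 and 86.3 in X453_2, with changes of -0.31 and -0.24 on the log2 scale (SE 0.029 each, limma adjusted P = 1e-05 and 4.2e-05). Its partner core protein UQCRC1 had 226 to 248, 221 to 234 and 224 to 239.7 FPKM in the 3 groups, which overlap (limma adjusted P = 0.24 and 0.78). UQCRFS1, the Rieske iron-sulfur protein, fell with X453_2 (59.7 to 64.5 FPKM in X453_NC and 53.7 to 55.7 in X453_2, log2 fold change -0.19, limma adjusted P = 0.00087), and the difference between X453_2 and X453_1 was -0.14 (limma adjusted P = 0.0095). Both were lost with median ratio scaling (-0.081 and -0.035, limma adjusted P = 0.083 and 0.49). UQCRB lay nearest to 0 in this complex (-0.05 and 0.0027).

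In complex IV, 4 of 11 genes (36.4%) rose with X453_1, near the 32.1% of all genes. With X453_2 it was 9 (81.8%), against 26.0% of all genes. Most of these rises were below 1.3-fold. COX7B rose from 297, 300.5 and 292 FPKM in X453_NC to 352, 342 and 362 in X453_1 and 404, 358 and 414 in X453_2, with no knockdown library as low as a control library (log2 fold changes 0.25 and 0.40, SE 0.049 each, limma adjusted P = 0.0015 and 4.7e-05). COX6C rose from 70.8 to 73.6 FPKM to 77.6 to 87.9 and 88.1 to 93.0 (0.18 and 0.34, limma adjusted P = 0.0052 and 8.2e-05), but with X453_1 it lost the threshold after the GC correction (0.11, limma adjusted P = 0.067). COX6B2 had the largest fold in the complex (0.39 and 0.55, limma adjusted P = 0.0053 and 0.00058) at a low level, 2.31 to 3.13 FPKM in X453_1 and 2.83 to 3.12 in X453_2. Its change with X453_1 stood barely past the 1.3-fold limit and fell below it without X453_NC replicate 1 or 2 or X453_1 replicate 2.

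Several abundant complex IV genes passed the threshold with X453_2 and not with X453_1, and these calls ended with the correction for transcript length. COX8A had 533 to 581 FPKM in X453_NC, 546 to 596 in X453_1, which overlap, and 624 to 669 in X453_2 (log2 fold change 0.24, limma adjusted P = 0.00074), and X453_2 was also above X453_1 (0.20, limma adjusted P = 0.0057). After the length correction COX8A stood at 0.082 with X453_2 (limma adjusted P = 0.12) and at 0.12 with X453_1 (limma adjusted P = 0.039), and after the GC correction it also passed with X453_1 (0.18, limma adjusted P = 0.0053). COX5B and COX7A2 followed the same order, with differences between X453_2 and X453_1 of 0.21 (limma adjusted P = 0.0031) and 0.18 (limma adjusted P = 0.0064), which fell to -0.0064 and 0.0030 after the length correction (limma adjusted P = 0.92 and 0.96). With that correction the rises of COX5B, COX7A2 and COX6B1 with X453_2 were also lost (0.095, 0.076 and 0.017, limma adjusted P = 0.064, 0.13 and 0.69). COX6A1 rose with both, from 371 to 406 FPKM to 411 to 432 and 452.8 to 463 (0.11 and 0.23, limma adjusted P = 0.017 and 0.00017). COX6A1 lost the threshold with X453_1 without X453_NC replicate 2 (0.08, limma adjusted P = 0.052) and without X453_1 replicate 2 (0.09, limma adjusted P = 0.069), and after the GC correction (0.079, limma adjusted P = 0.069).

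COX4I1, the ubiquitous form of the largest nuclear subunit of complex IV, went against the other genes of the complex. It had 261, 232 and 249 FPKM in X453_NC, 211, 199.5 and 203 in X453_1 and 223, 239 and 233 in X453_2. It fell with X453_1 (log2 fold change -0.27, SE 0.045, limma adjusted P = 0.00047), while X453_2 overlapped the control (-0.09, limma adjusted P = 0.089, and -0.14 with limma adjusted P = 0.013 without X453_NC replicate 2). The difference between X453_2 and X453_1 was 0.18 (limma adjusted P = 0.011), or 0.051 after the length correction (limma adjusted P = 0.39), with which X453_2 fell against X453_NC (-0.14, limma adjusted P = 0.016). COX5A, which together with COX4I1 is among the first nuclear subunits to join the complex, lay nearest to 0 (-0.04 and -0.0083), with 173 to 183, 170.0 to 174 and 172 to 182 FPKM. Of the tissue-specific forms named by the rule, COX4I2, COX6A2 and COX7B2 were not analysed here.

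In complex V the genes of 1 subunit moved in opposite directions. ATP5G1, ATP5G2 and ATP5G3 lie on chromosomes 17, 12 and 2 and encode the same mature subunit c, the ring of the ATP synthase rotor, with different import sequences. ATP5G2 (12, 54058944 to 54070512) had 484, 462 and 464 FPKM in X453_NC, 338, 342 and 332 in X453_1 and 338, 321 and 349 in X453_2. It fell by the same amount with both, and no knockdown library reached the lowest control library (log2 fold change -0.48 for each, SE 0.034, limma adjusted P = 1.9e-06 and 1.1e-06). ATP5G1 (17, 46970148 to 46973233) had 65.7, 61.8 and 58.9 FPKM in X453_NC, 82.8, 82.5 and 85.7 in X453_1 and 86.1, 90.4 and 95.0 in X453_2, so that it rose (0.42 and 0.54, SE 0.046 each, limma adjusted P = 2.7e-05 and 4e-06). ATP5G3 rose less, from 49.2 to 52.1 FPKM to 57.8 to 59.0 and 59.4 to 62.0 (0.19 and 0.24, limma adjusted P = 0.00043 and 6.6e-05).

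ATP5G2 was the most abundant of the 3, and the summed level of the subunit c genes was lower in the knockdown libraries. The sum was 602, 573 and 574.5 FPKM in X453_NC (583 ± 16.6, SD, n = 3), 478, 484 and 476 in X453_1 (479.5 ± 3.81, SD, n = 3) and 485, 471 and 506 in X453_2 (487 ± 17.7, SD, n = 3), and the knockdown libraries did not overlap the control. The share of ATP5G2 in the sum was 80.4% to 80.7% in X453_NC, 69.8% to 70.8% in X453_1 and 68.2% to 69.8% in X453_2. The share of ATP5G1 was 10.3% to 10.9%, 17.1% to 18.0% and 17.8% to 19.2%. The opposite directions of ATP5G1 and ATP5G2 held with median ratio scaling, with a correction for transcript length and with that for GC content, although with the scaling ATP5G2 was at -0.38 with X453_2, just below the 1.3-fold limit. FPKM do not show how the fragments of parts shared between the 3 genes were divided.

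**Figure D4:**
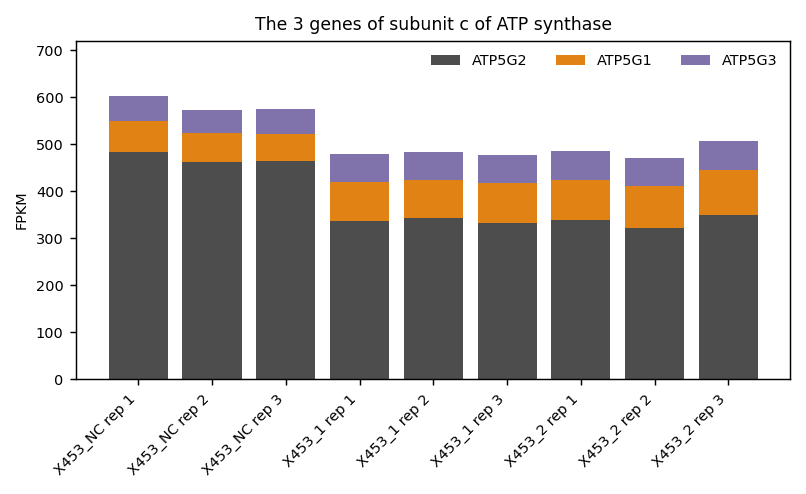
FPKM (stacked bars from 0) of ATP5G2, ATP5G1 and ATP5G3, which encode the same mature subunit c, in each of the 9 libraries. The ATP5G2 part is 462 to 484 FPKM in X453_NC and 321 to 349 in the knockdown libraries, while the ATP5G1 part is larger there.

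The sequence before the start of ATP5G1 and ATP5G2 is given here because the 2 genes encode the same mature protein and moved apart. Each is the 250 bases upstream of a RefSeq transcript start (GRCh38.p14), at chr17:48892537-48892786 on the plus strand for ATP5G1 and chr12:53676084-53676333 on the minus strand for ATP5G2, which has 3 listed starts. Capitals mark a match to the core of the site of NRF1, a transcription factor known for the genes of the respiratory chain.
ATP5G1: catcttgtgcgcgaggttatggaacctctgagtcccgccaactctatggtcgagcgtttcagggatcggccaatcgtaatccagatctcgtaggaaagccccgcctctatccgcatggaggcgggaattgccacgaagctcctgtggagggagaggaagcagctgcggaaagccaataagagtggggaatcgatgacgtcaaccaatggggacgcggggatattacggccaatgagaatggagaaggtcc
ATP5G2: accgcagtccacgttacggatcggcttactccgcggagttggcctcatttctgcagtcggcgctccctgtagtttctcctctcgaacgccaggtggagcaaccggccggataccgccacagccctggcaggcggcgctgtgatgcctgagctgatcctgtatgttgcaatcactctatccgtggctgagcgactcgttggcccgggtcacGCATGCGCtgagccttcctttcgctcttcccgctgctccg
The ATP5G1 stretch holds 0 matches to the letters searched, and its GC content is 56.0%, against 62.4% for that of ATP5G2. The stretches before the other listed starts of ATP5G2 have 54.4% (1 match, to the NRF1 core) and 45.6% (0 matches). The order of GC content between the genes thus depends on the start that is shown. A match is a description of the letters and not a site that was measured.

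The genes of the catalytic F1 head did not move together. ATP5D, the delta subunit in the stalk of F1, fell the most of all members. It had 127, 105 and 119.9 FPKM in X453_NC, 79.9, 78.8 and 69.4 in X453_1 and 68.2, 84.6 and 77.3 in X453_2 (log2 fold changes -0.62 and -0.61, SE 0.089 each, limma adjusted P = 0.00018 and 0.00016). The groups were apart, but its transcripts have a GC content of 68.1%, and after the GC correction the changes were -0.04 and -0.15 (limma adjusted P = 0.71 and 0.17), so that it no longer fell. ATP5C1, the gamma subunit, lay nearest to 0 (0.01 and 0.01), and ATP5A1, the alpha subunit, stood at 0.07 and 0.01 (limma adjusted P = 0.081 and 0.68). ATP5E, the epsilon subunit, rose with X453_2 (0.15, limma adjusted P = 0.0021), which the length correction ended (-0.025, limma adjusted P = 0.52).

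ATP5B, the gene with the highest level, went down with X453_1 and up with X453_2. Its values were 674, 656 and 655 FPKM in X453_NC, 581, 598 and 586 in X453_1 and 709.6, 681 and 702 in X453_2. The X453_1 libraries were all below and the X453_2 libraries all above the control. The log2 fold changes were -0.17 (SE 0.025, limma adjusted P = 0.00022) and 0.08 (SE 0.025, limma adjusted P = 0.021). The rise with X453_2 did not last when X453_NC replicate 2 or 3 or X453_2 replicate 1 or 3 was left out (0.06 to 0.07, limma adjusted P = 0.055 to 0.069), nor after the GC correction (0.0008, limma adjusted P = 0.98). The difference between X453_2 and X453_1, 0.25 (limma adjusted P = 9.8e-05), remained at 0.19 to 0.35 with the scaling and both corrections.

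The peripheral stalk holds the F1 head in place, and 2 of its 4 genes rose with X453_1 and 3 with X453_2, while 0 fell by limma (0 of 4 were below 0 in either comparison). The shares of all genes were 32.1% and 26.0% for a rise and 32.3% and 44.8% for a fall. ATP5J rose from 41.9 to 44.7 FPKM to 48.9 to 54.4 and 51.5 to 60.99 (log2 fold changes 0.25 and 0.38, limma adjusted P = 0.0044 and 0.00028). ATP5O rose from 174 to 186 FPKM to 211 to 222 and 221 to 227 (0.27 and 0.32, limma adjusted P = 4.2e-05 and 1e-05). Of the small membrane subunits, ATP5J2 rose with both (0.21 and 0.32), and ATP5L rose with X453_2 (0.14, limma adjusted P = 0.0069) but not with X453_1 (-0.02, limma adjusted P = 0.64), and after the GC correction its rise was lost (0.073, limma adjusted P = 0.11). ATP5S and ATP5SL carry ATP5 names without being structural subunits of the synthase. ATP5S had 4.72 to 5.21 FPKM in X453_NC, 4.46 to 5.17 in X453_1 and 3.15 to 3.85 in X453_2, a fall with X453_2 of -0.40 (SE 0.072, limma adjusted P = 0.00067) and a difference between X453_2 and X453_1 of -0.33 (limma adjusted P = 0.0052). ATP5SL overlapped in all groups (17.6 to 24.2 FPKM).

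Between X453_2 and X453_1, 27 members rose, where 10.2% of all genes were higher, and 5 fell, where 33.9% were lower. The members past the 1.3-fold limit were 0 (limma, also at an unadjusted P of at most 0.05), where 2.06% of all genes were past it as higher and 5.32% as lower. The median difference was 0.11 over the members and -0.08 over all genes, and 59 of 72 members were above 0. By complex it was 0.12 for complex I, 0.09 for complex III, 0.16 for complex IV, where all 11 genes were above 0, and 0.05 for complex V. The 5 that fell included NDUFS1 and NDUFV2, core subunits of the NADH-oxidizing arm (-0.22 and -0.15, limma adjusted P = 0.00058 and 0.0028), with UQCRFS1 and ATP5S (above) and NDUFA5 (-0.12, limma adjusted P = 0.036). With median ratio scaling the differences of NDUFV2, UQCRFS1 and NDUFA5 were lost (-0.046, -0.035 and -0.021, limma adjusted P = 0.26, 0.49 and 0.69).

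Transcript length moved with this difference over the whole table. The median longest transcript was 955 bases over the tested members and 3542.5 over all tested genes. For all genes of up to 500 bases the median log2 difference between X453_2 and X453_1 was 0.15, and it fell through 0.10 (501 to 750 bases), 0.09 (751 to 1000), 0.02 (1001 to 1500) and -0.02 (1501 to 2000) to -0.14 in genes over 6000 bases. The members in the classes up to 1000 bases had medians of 0.12, 0.12 and 0.11, close to those of all genes, and those of 1001 to 1500 and 1501 to 2000 bases had 0.12 and 0.13, above them. After a correction for transcript length, the median of the members was -0.05, 3 rose and 18 fell. The direction between the knockdown groups turned with that correction. Against X453_NC the correction left the members above 0, at 0.14 with X453_1 and 0.09 with X453_2, and 7 higher and 4 lower members were then past the limit with X453_1.

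**Figure D5:**
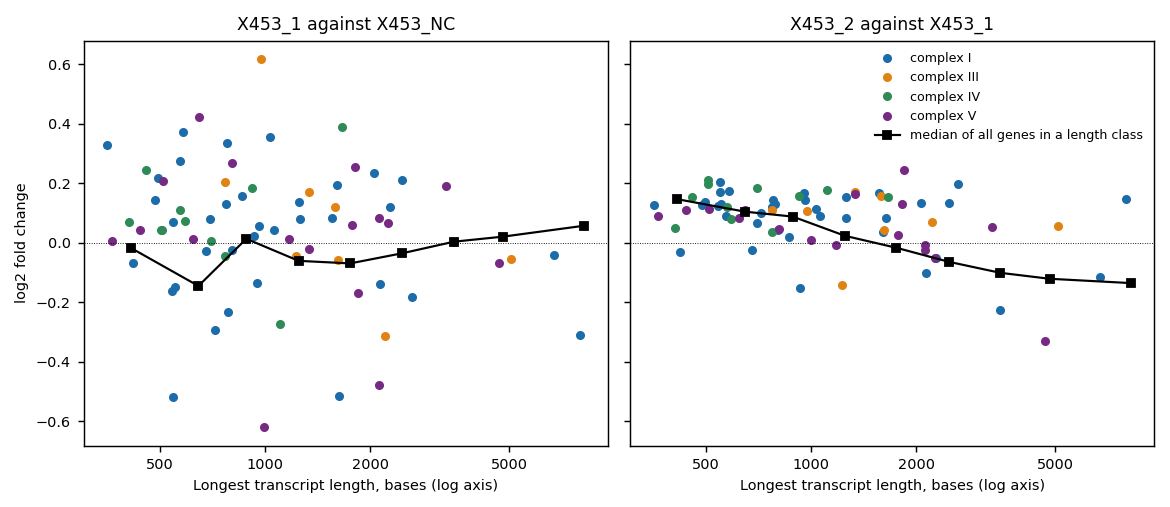
log2 fold change of the 72 tested genes (points, colored by complex) against the longest transcript length (bases, log axis), for X453_1 against X453_NC on the left and X453_2 against X453_1 on the right; squares are the median of all tested genes in 9 length classes. On the right the squares fall from 0.15 in the shortest to -0.14 in the longest class and most points lie along or above them. On the left the squares are lowest, at -0.14, in the class of 501 to 750 bases and highest, at 0.06, in the longest class.

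Median GC content differed between the members that rose and those that fell. The 27 members that rose with both knockdown groups had a median transcript GC content of 48.7% and the 7 that fell with both had 56.2%. Of the 7, NDUFV1, NDUFB7, ATP5D and ATP5G2 were above the median of the tested members (49.8%). UQCRC2 (44.2%), NDUFB9 (48.7%) and NDUFA10 (49.2%) were below it. Both comparisons use the same X453_NC libraries, and the shares of all genes that rose or fell with both were not computed. Of the 4 members past the limit as lower with X453_1, the GC correction left only ATP5G2 (-0.42, limma adjusted P = 4.7e-06), while NDUFV1, NDUFB7 and ATP5D were below the limit and UQCRC2 (-0.39) was then past it. UQCR10 (0.56 and 0.65) and ATP5G1 (0.43 and 0.50) stayed past the limit as higher with that correction.

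Other genes of the pathway did not follow a single direction. Changes of genes outside the members are given without scaling or the corrections for length and GC content, whose effect on them was not examined. Complex II, which feeds electrons from succinate and has only nuclear subunits, had 2 of 4 genes up with each knockdown: SDHB (0.22 and 0.25, limma adjusted P = 0.00016 and 4.2e-05) and SDHA (0.13 and 0.13). Of 8 subunit or partner genes that the naming rule leaves out, 5 rose and 3 fell with X453_1 and 5 rose and 2 fell with X453_2. Of all genes, 32.1% rose and 32.3% fell with X453_1, and 26.0% rose and 44.8% fell with X453_2. NDUFA4L2, a paralog of NDUFA4 known as a target of hypoxia signaling, rose from a mean of 29.5 FPKM to 44.1 and 67.5 (0.57 and 1.17, limma adjusted P = 7.5e-06 and 4.6e-08), and the difference between X453_2 and X453_1 was 0.60 (limma adjusted P = 3.3e-05). COX7A2L, which links complexes III and IV into supercomplexes, fell from 80.4 to 60.0 and 58.6 FPKM (-0.42 and -0.45).

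Of 45 assembly factors 13 rose and 12 fell with X453_1, and 13 rose and 16 fell with X453_2 (medians 0.08 and 0.02). The share that rose, 28.9% with each, was near that of all genes (32.1% and 26.0%). The largest changes that passed in both were falls of SDHAF1, a factor for complex II (-0.70 and -0.71), and ECSIT, a factor for complex I (-0.61 and -0.77). Of 16 tested regulators of mitochondrial genes, 7 rose and 4 fell with X453_1 and 2 rose and 6 fell with X453_2. The shares of regulators that rose were 43.75% and 12.5%, against 32.1% and 26.0% of all genes. Of all genes, 32.3% and 44.8% fell. ESRRA, a nuclear receptor known to drive genes of the respiratory chain, fell from 30.9 to 13.03 and 12.96 FPKM (-1.19 and -1.20, limma adjusted P = 4.3e-06 and 2.8e-06), while SLIRP, which stabilizes mitochondrial transcripts, rose from 93.4 to 139.9 and 155 FPKM (0.58 and 0.73). NRF1 itself fell (-0.19 and -0.38, limma adjusted P = 0.023 and 0.0003). Of the 4 listed carriers of phosphate or of ADP and ATP, 3 were tested, and 2 fell with each knockdown. SLC25A3 and SLC25A5 fell by 0.39 and 0.67 on the log2 scale with X453_1 and by 0.65 and 0.81 with X453_2. SLC25A4 passed in neither comparison (-0.07 and 0.04, limma adjusted P = 0.21 and 0.54), and SLC25A6 was below the filter.

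Promoters of the members were searched for short motifs. RefSeq promoters (GRCh38.p14, 250 bases before to 50 after a start) were found for 62 of the 77 genes, and a gene was counted when any of its listed starts held the letters on either strand. The core of the NRF1 site, GCGCATGC, was in 12 genes (19.4%), against 6.63% of the tested genes with a promoter and 3.68% of all genes in the promoter table; it overlaps its own reverse complement in longer sites. The YY1 letters AANATGGCG were in 16 members (25.8%), against 8.68% and 3.85%. The ETS letters CCGGAAG, read by GABPA, were in 18 (29.03%), against 23.5% and 12.2%. Among the 21 members with a promoter that rose with both, 4 held the NRF1, 5 the YY1 and 6 the ETS letters. Of the 5 that fell with both, 1 held the NRF1, 0 the YY1 and 1 the ETS letters. No test was run on these shares.

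By complex, the YY1 letters were in 11 of 32 promoters of complex I genes and 3 of 7 of complex III, but in 1 of 11 of complex IV and 1 of 12 of complex V, while the ETS letters were in 5 of 32 of complex I and 5 of 11 of complex IV. The windows of the genes with the largest rise in complexes I and III that hold a match are shown with 29 bases each and the match in capitals, from chr22:29767386-29767414 (plus strand, YY1 letters) and chr9:122159765-122159793 (minus strand, NRF1 core), followed by the YY1 window of COX6A1, a complex IV gene that rose with both, from chr12:120438114-120438142 (plus strand).
UQCR10: actgtgaagaAACATGGCGgccgcgacgt
NDUFA8: gttgccggatGCGCATGCgcaggcgccgt
COX6A1: gtccagatcaAAAATGGCGgtagttggtg
In UQCR10 and COX6A1 the match lies 27 and 11 bases after the start and holds ATG, and in NDUFA8 it crosses the start. YY1 itself had log2 fold changes of -0.01 with X453_1 (limma adjusted P = 0.86) and -0.22 with X453_2 (limma adjusted P = 0.0091).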

How the data were processed

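RNA of the 9 libraries was sequenced on the BGISEQ-500 platform. The authors deposited 1 table with the FPKM of 19930 genes, rounded to 2 decimals; the submitters' processing notes name Bowtie2 and GRCh37.p13. The table also holds the authors' log2 ratios, P values and Q values between groups, which were not used. FPKM hold no read counts, so no count test was run; the depth (23700000 to 27600000 fragments) was estimated from the steps of low values in genes of 300 to 900 bases and limits the precision of low genes only.

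Genes that averaged 1 FPKM or more were tested as log2(FPKM + 1) with limma 3.58.1 (lmFit, and eBayes with a trend) in R 4.3.3, in a single model of the 9 libraries with a term for group and no other term, after a check on simulated data. With 3 libraries against 3, an exact permutation test of 1 gene cannot give a two-sided P below 0.1. The log2 scale understates the change of low genes. GC content came from GENCODE transcripts, joined by gene ID for all 77 genes; promoters came from RefSeq. Coordinates of genes are those of the table.

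Named members were, per complex, that with the highest level, up to 3 with the largest rise and fall in both comparisons, that nearest to 0, paralog sets, and NDUFA4, ATP5S and ATP5SL; of each other list, the 2 largest changes shared by both. NRF1, YY1, HNF4A and further members were named after their values were seen. The members and lists were chosen with earlier results of these data known. Alternatives were the added value, the filter, the limits, scaling, corrections for length and GC content, the libraries in the fit, a replicate block and each library left out. For the 2 corrections a smooth curve (loess) over all genes was subtracted from the log2 fold changes of the main fit. Their median was then added back. P was computed from the limma standard errors and degrees of freedom of the main fit, without the error of the curve. Tables were read in Python 3.11.15 with pandas 2.3.3 and numpy 2.4.6, and figures drawn with matplotlib 3.10.9.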

Additional observations from a re-analysis of the deposited data

Results flagged for a closer look

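ATP5B, the beta subunit of the ATP synthase and the member with the highest level, moved in opposite directions in the knockdown groups. It was lower than each X453_NC library in all 3 X453_1 libraries and higher in all 3 X453_2 libraries. The difference between X453_2 and X453_1 was 0.25 on the log2 scale (limma adjusted P = 9.8e-05). The rise with X453_2 was small (0.08) and was lost after the GC correction (0.0008, limma adjusted P = 0.98). It was also lost when X453_NC replicate 2 or 3 or X453_2 replicate 1 or 3 was left out. Outliers were not looked for, since each group holds 3 libraries.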

How the results depend on the processing

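The members past the limit numbered 7 with X453_1, 13 with X453_2 and 0 between the knockdown groups. Without the fold limit they were 37, 54 and 32, and with a limit of 1.5-fold 2 and 2; 0.1 in place of 1 FPKM added gave 1 between the knockdown groups. Median ratio scaling gave 22 with X453_2 and medians of 0.25 (all members), 0.24 (complex I), 0.24 (III), 0.34 (IV) and 0.20 (V), and between the knockdown groups 0.22, 0.23, 0.19, 0.26 and 0.16. The correction for transcript length gave 11 with X453_1 and medians of 0.14, 0.15, 0.13, 0.14 and 0.11; with X453_2 0.087 (all), 0.085 (I), 0.12 (III), 0.082 (IV) and 0.092 (V), so that complex IV went from the highest to the lowest; and between the knockdown groups -0.0495, -0.047, -0.0002, -0.019 and -0.085. The GC correction, over 11380 genes, gave medians with X453_1 of 0.088 (III) and -0.0046 (V), and with X453_2 of 0.17 (I) and 0.17 (IV). Without a filter, complexes III and IV had 0.23 and 0.19 with X453_2. The cause of these shifts was not tested.

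With 1 library left out, 6 to 8 members were past the limit with X453_1, 12 to 16 with X453_2 and 0 to 0 between the knockdown groups. The medians with X453_1 ranged from 0.035 to 0.076 (all members), 0.038 to 0.075 (I), 0.025 to 0.062 (III), 0.035 to 0.097 (IV) and 0.019 to 0.044 (V). With X453_2 they ranged from 0.12 to 0.16, 0.10 to 0.15, 0.11 to 0.16, 0.20 to 0.26 and 0.069 to 0.12, and between the knockdown groups from 0.091 to 0.11, 0.099 to 0.12, 0.070 to 0.11, 0.13 to 0.155 and 0.051 to 0.075.

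Single genes changed direction as follows. NDUFS8 with X453_1 was at 0.30 after the GC correction, and COX5A with X453_2 at 0.10 after scaling. Between the knockdown groups the length correction turned NDUFA12 (-0.027), NDUFA8 (-0.020), NDUFB3 (-0.025), UQCRH (-0.061), COX8A (-0.019), COX7B (-0.074), COX5A (-0.14), ATP5O (-0.12), COX6A1 (-0.082) and COX6B1 (-0.12). Of 1728 alternative values for named members, 1603 kept direction and side of the threshold, 74 lost it, 39 gained it and 12 changed direction.

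With the replicate number as a block, the numbers past the limit stayed at 7, 13 and 0 and the medians at 0.06, 0.14 and 0.11, and 27 members rose and 10 fell with X453_1, 38 and 13 with X453_2 and 24 and 4 between the knockdown groups. The deviations of same-numbered libraries correlated with r of -0.239 to 0.104 over 9 pairs, so the numbers were not taken as a pairing. No read counts underlie the table as used, and at about 2 FPKM, as for COX6B2, the values carry more counting error than those of the abundant members.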
